A study of Mus musculus with 2 samples.

Results

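Neural crest cells arise at the edge of the neural plate, lose their epithelial contacts and migrate to form peripheral glia and neurons, pigment cells and much of the face. Their formation runs through a cascade of transcription factors. Border specifiers (Pax3, Pax7, Tfap2a) mark the edge of the plate, crest specifiers (Foxd3, Snai1, Snai2, Twist1, Ets1, Tfap2b) set the fate and the release of the cells, and Sox10 is kept in the migrating crest and its glial and pigment derivatives. Several of these factors also act outside the crest, Snai1 and Twist1 in early mesoderm, Ets1 in endothelium and Tfap2a in surface ectoderm.

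These 10 factors were selected by gene symbol from a table of 17586 gene symbols, and all 10 had reads in both libraries. Of these, 9 had at least 50 reads over both libraries, and 6 had at least 50 in each. The level and ratio of Sox10 in these same libraries were known when the 10 were chosen, so the values below are a description and are not evidence for the choice. The table compared 2 RNA-seq libraries from FOXJ1-EGFP mouse embryos of a C57BL/6 x 129 SvEv background, at embryonic day 8 with 0 to 4 somites. The FOXJ1 promoter drives green fluorescent protein in ciliated left–right organizer (LRO) cells, which line the pit where left–right asymmetry begins. GFP positive cells gave the LRO library and GFP negative cells gave the non-LRO library, each from a different pool of micro-dissected embryos. The negative cells were those surrounding the organizer, so every other cell type of the dissected tissue can lie in that library. With 1 library per group no replicate error exists, no test of the groups was made, and every interval below covers the counting error of reads only. Embryo pool and sort gate cannot be told apart from each other, nor fewer cells of a type from less RNA per cell. The paper reports far fewer cells and far less RNA for the LRO pool, so input before amplification also differed with the group. Its part in the values below, among them those at or near 0 reads, was not tested.

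The LRO library held 16672852 reads assigned to genes and the non-LRO library 13418798. The LRO column carried no sorting label and was assigned as the only other library of a table that names GFP negative cells for one of its 2 libraries. Markers were listed with earlier results of these data known, so their counts are a description beside that assignment. By the rule given below, all 11 organizer markers listed were higher in the LRO library, against 3.97% of all symbols. Among them was Foxj1, the regulator of motile cilia, with 194 LRO reads against 4 non-LRO reads. Foxj1 is the mouse counterpart of the gene whose promoter drives the reporter, so it bears most directly on the assignment. Of 10 endothelial markers 9 were lower, against 12.3% of all symbols. The 10 summed to 12.3 RPKM in the LRO library, against 61.2 RPKM in the non-LRO library. RPKM, the read number set against transcript length and library size, is the scale on which levels of different genes are set side by side here.

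Size was judged on the LRO to non-LRO ratio of scaled reads: "higher" means a lower 95% bound above 2 and "lower" an upper bound below 0.5. By this rule 699 of all 17586 symbols (3.97%) were higher and 2167 (12.3%) were lower. Of the 10 factors 5 were higher (Sox10, Foxd3, Tfap2b, Pax7, Tfap2a), 0 were lower and 5 were neither (Twist1, Ets1, Pax3, Snai2, Snai1). With TMM factors, a scaling in which most genes are taken as level, 1134 symbols were higher and 1388 lower, and Twist1 joined the 5 higher factors. Since the factors were chosen with such ratios in view, nothing is read from these counts beside the percentages of all symbols. The median log2 ratio, with 1 read added to each library, was 1.65 over the 10 factors, against -0.42 over all symbols and -0.31 over the 9894 symbols with at least 50 reads in both libraries.

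**Figure D1:**
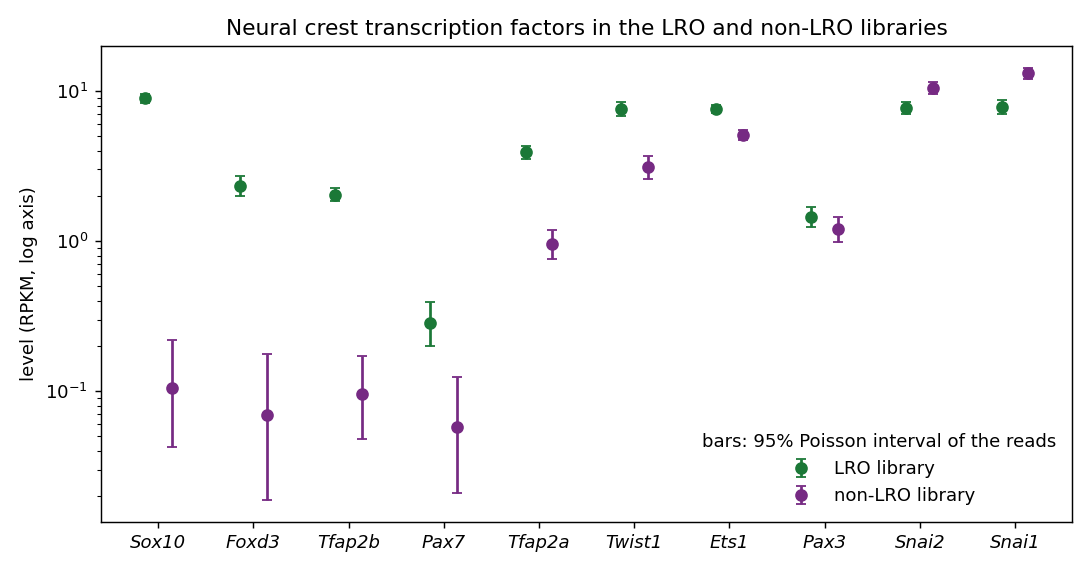
Level of each factor in the LRO library (green) and the non-LRO library (purple), in RPKM on a log axis. Points are the 1 library of each group and bars the 95% Poisson interval of its reads. Sox10 stood at 8.92 RPKM in the LRO library, against 0.106 RPKM in the non-LRO library, while Snai1 stood at 7.82 RPKM in LRO and 13.1 RPKM in non-LRO cells.

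Sox10, a SoxE factor that maintains crest progenitors and directs glial and pigment fates, had the widest difference of the 10. It had 733 reads (8.92 RPKM) in the LRO library and 7 reads (0.106 RPKM) in the non-LRO library, a ratio of 84.4 (95% interval 40.8 to 211). Foxd3, a forkhead repressor that holds crest cells in a progenitor state and is also a factor of the early epiblast, had 167 LRO reads (2.33 RPKM) and 4 non-LRO reads (0.0691 RPKM). Its ratio was 33.7 (12.9 to 125). Tfap2b, an AP-2 factor of premigratory crest, had 379 LRO reads (2.04 RPKM) and 11 non-LRO reads (0.0961 RPKM), and its ratio was 27.8 (15.3 to 56.1). The intervals of these 3 ratios overlap, and their order was not tested. In the non-LRO library all 3 were close to the limit of what could be read, with upper 95% bounds of 0.218 RPKM for Sox10, 0.177 RPKM for Foxd3 and 0.172 RPKM for Tfap2b.

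Tfap2a and Pax7 made up the rest of the higher factors. Tfap2a, the AP-2 factor of the border and surface ectoderm, had 401 LRO reads (3.91 RPKM) against 79 non-LRO reads (0.957 RPKM), a ratio of 4.09 (3.21 to 5.28). Pax7, a paired-box border specifier, had the fewest reads of the 10, with 37 in the LRO library (0.286 RPKM) and 6 in the non-LRO library (0.0575 RPKM). Its ratio of 4.97 had a lower bound of 2.08, the nearest of the called factors to the limit of 2, and with a 99% interval (lower bound 1.67) the call was lost. The nearest on the other side was Twist1, whose lower bound was 1.98.

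Twist1, a basic helix-loop-helix factor of crest and head mesoderm, had 374 LRO reads (7.58 RPKM) and 124 non-LRO reads (3.12 RPKM), a ratio of 2.43 (1.98 to 3.0). With TMM factors the ratio was 3.10 (2.52 to 3.82), which meets the rule for higher. Ets1, which acts with the Snail factors in the release of cranial crest, had the most reads of the 10. It had 1126 in the LRO library (7.59 RPKM) and 614 in the non-LRO library (5.10 RPKM), a ratio of 1.48 (1.34 to 1.63). Pax3, the border specifier closest in family to Pax7, had 169 LRO reads (1.45 RPKM) against 107 non-LRO reads (1.20 RPKM), and the interval of its ratio of 1.27 ran from 0.994 to 1.64. A difference in Pax3 was therefore not detectable with this scaling and depth, while TMM factors gave 1.62 (1.27 to 2.09).

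The Snail factors, repressors of E-cadherin that let cells leave an epithelium in both the crest and the primitive streak, were the 2 factors with a ratio under 1. Snai1 had 383 LRO reads (7.82 RPKM) and 519 non-LRO reads (13.1 RPKM), and its ratio was 0.595 (0.520 to 0.680). Snai2 had 466 LRO reads (7.65 RPKM) and 514 non-LRO reads (10.5 RPKM), and its ratio was 0.731 (0.643 to 0.830). Neither met the rule for lower, and with TMM factors the interval of Snai2 included 1 (0.931, 0.819 to 1.06). Against the shift of -0.31 in well-read symbols, the log2 ratio was -0.44 for Snai1 and -0.15 for Snai2.

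**Figure D2:**
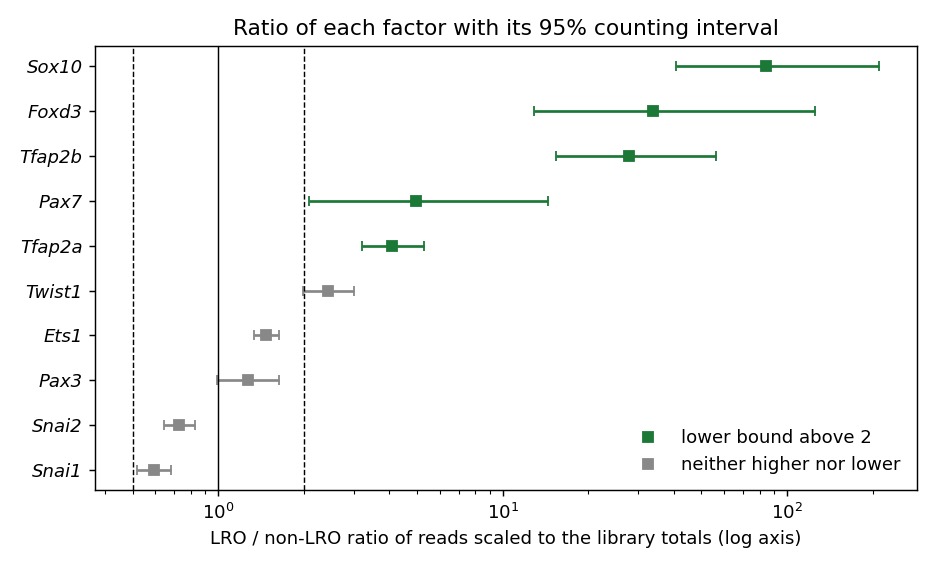
LRO to non-LRO ratio of scaled reads for each factor on a log axis, with its 95% counting interval. Dashed lines mark 0.5 and 2, and green marks factors whose lower bound was above 2. Sox10 lies at 84.4, Twist1 has its lower bound at 1.98, and Snai1 and Snai2 lie under 1.

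The order of the levels differed between the libraries. In the LRO library Sox10, Snai1, Snai2, Ets1 and Twist1 lay between 8.92 and 7.58 RPKM. Each overlapped its neighbour in the order within the 95% intervals, but Sox10 (8.29 to 9.59) and Ets1 (7.15 to 8.04) lay apart. Tfap2a followed at 3.91 RPKM, apart from Twist1 above it, then Foxd3 and Tfap2b, which overlapped. Pax3 came next and Pax7 last, each apart from the one above. In the non-LRO library Snai1, Snai2, Ets1, Twist1 and Pax3 followed each other with intervals apart, Pax3 overlapped Tfap2a, and Sox10, Tfap2b, Foxd3 and Pax7 lay together at 0.106 RPKM or less. The 10 factors summed to 49.6 RPKM in the LRO library, against 34.3 RPKM in the non-LRO library. Sox10 made up 18.0% of that sum in the LRO library, against 0.308% in the non-LRO library, while Snai1 and Snai2 together made up 31.2% in the LRO library and 68.8% in the other.

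Set among all symbols, the level of Sox10 ranked 3140 of 17586 in the LRO library, against 14566 in the non-LRO library. Snai1, in contrast, ranked 3522 in the LRO library, against 2576 in the non-LRO library. The symbols closest to Sox10 in log2 ratio, among the 3678 whose LRO reads were between 0.5 and 2 times its own, were Dnah5 (477 LRO and 4 non-LRO reads), Shh (731 LRO and 9 non-LRO reads) and Dnah6 (378 LRO and 8 non-LRO reads). Dnah5 and Dnah6 encode dynein heavy chains of motile cilia and Shh the signal of the node and notochord. Dnah5, Shh and Dnah6 had ratios of 96.1, 65.5 and 38.1, against 84.4 for Sox10. These symbols were picked by that ratio, so the likeness was set by the search, and it is over only 2 libraries. In level per length Sox10 and Shh also lay side by side, Shh at 9.05 RPKM in the LRO library, against 0.133 RPKM in the non-LRO library.

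**Figure D3:**
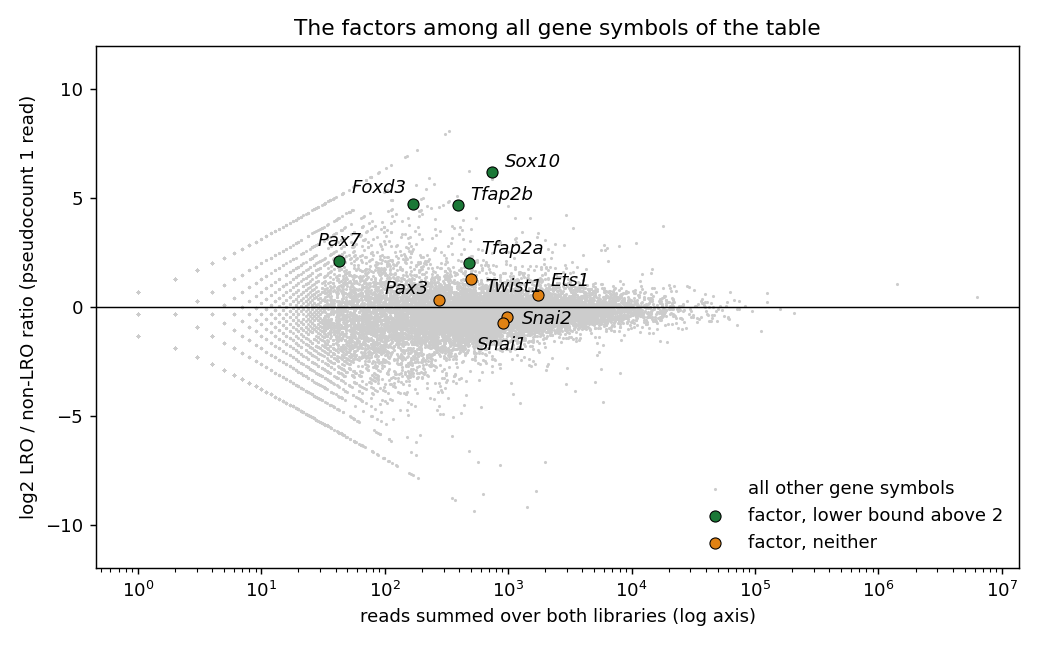
The 10 factors among all gene symbols of the table. The horizontal axis gives reads summed over both libraries on a log axis and the vertical axis the log2 LRO to non-LRO ratio with 1 read added to each library. Sox10, Foxd3 and Tfap2b lie at 6.21, 4.76 and 4.67, above most symbols of similar read number, and Snai1 lies at -0.75.

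The promoters of 6 factors were held in the RefSeq windows used here (GRCm38.p6). They are printed for the 2 widest ratios among these 6, Foxd3 and Tfap2b, and for Snai1, the factor lowest in ratio, as the 250 bases before the annotated start. Capitals mark matches to the motifs described after them.
Foxd3 (chr4:99656049-99656298, + strand): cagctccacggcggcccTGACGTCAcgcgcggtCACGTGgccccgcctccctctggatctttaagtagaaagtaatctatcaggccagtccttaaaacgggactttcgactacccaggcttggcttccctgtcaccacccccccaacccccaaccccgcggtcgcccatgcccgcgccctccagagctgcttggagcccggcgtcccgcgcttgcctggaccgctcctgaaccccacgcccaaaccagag
Tfap2b (chr1:19211804-19212053, + strand): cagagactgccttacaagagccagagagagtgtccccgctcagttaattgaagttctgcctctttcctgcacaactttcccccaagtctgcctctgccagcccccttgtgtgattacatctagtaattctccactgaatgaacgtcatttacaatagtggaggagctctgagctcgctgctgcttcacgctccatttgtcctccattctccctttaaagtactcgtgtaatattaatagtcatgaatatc
Snai1 (chr2:167537945-167538194, + strand): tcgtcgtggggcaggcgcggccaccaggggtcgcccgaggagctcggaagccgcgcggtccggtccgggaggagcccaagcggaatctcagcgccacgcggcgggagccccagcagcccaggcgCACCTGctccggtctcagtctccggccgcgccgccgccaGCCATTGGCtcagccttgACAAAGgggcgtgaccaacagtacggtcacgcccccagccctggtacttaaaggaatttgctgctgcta

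These were searched on both strands: the Snail-type E-box CAGGTG, the palindromic E-box CACGTG, the AP-2 motif GCCNNNGGC, the SOX motif ACAAAG, the CRE motif TGACGTCA, the CCAAT box, the TATA box TATAAA and the FOX motif TGTTTAC. The Foxd3 window held the CRE, 233 bases before the start and found in 1.55% of all 32851 windows, and the palindromic E-box 217 bases before it, found in 6.02%. The Snai1 window held the Snail-type E-box (126 bases before the start, in 17.2% of all windows), AP-2 (87 bases, 13.7%), CCAAT inside that AP-2 match (84 bases, 33.8%) and SOX (69 bases, 16.5%). Twist1 held TATAAA (126 bases, 12.4%) and CCAAT (89 bases). The windows of Tfap2b, Pax7 and Tfap2a, which has 2 starts, held none of these letters. These matches describe letters, not binding. Sox10 had no window, and among the higher factors with a window only Foxd3 held any match, so nothing is read about shared motifs.

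Sox10 and Foxd3 had 1 transcript row each, as had Snai1, Snai2, Twist1 and Pax7, while Tfap2a, Tfap2b, Ets1 and Pax3 had several. Reads that fit more than 1 row were divided by the quantifying software, so the shares are estimates. Of the genes with over 50 reads in both libraries, Pax3 differed most in this division. Its row NM_008781 had 169 estimated LRO reads and 62.6 non-LRO reads, while NM_001159520 had 0.133 estimated LRO reads and 44.0 non-LRO reads. NM_008781 thus took 99.9% of the gene in the LRO library, against 58.8% in the non-LRO library. On that row alone the ratio was 2.16 (1.61 to 2.94), against 1.27 for the gene as a whole, and NM_001159520 taken alone met the rule for lower.

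The Pax3 rows part at the end of the coding sequence. The 30 bases around the parting point are shown because a read that crosses it can tell the transcripts apart (GENCODE M21 on GRCm38, chromosome 1, minus strand, position 78103328). Reads elsewhere can also do so where the transcripts differ. Capitals mark the bases after the point.
NM_008781: ggcagtatggacaaaGTAAGCCTTGGACGT
NM_001159520: ggcagtatggacaaaGTGCCTTTCATTATC
In NM_008781, of 8 exons, the last exon runs on past this point and soon meets its stop codon. In NM_001159520, of 9 exons, exon 8 is joined here to a further exon that holds the stop codon, so the encoded proteins end differently.

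Tfap2b had 3 rows. NM_009334 had 266 LRO and 2.52 non-LRO reads, NM_001025305 had 113 LRO and 2.85 non-LRO reads, and NM_001286340 had 3.57e-05 LRO and 5.64 non-LRO reads. The first and the second were higher in the LRO library, and 11 reads in all set the non-LRO division. Tfap2a divided more evenly. Its rows NM_001122948 and NM_011547 had ratios of 4.77 (3.37 to 6.92) and 4.33 (2.96 to 6.53), and NM_001301674 had 3.43 LRO and 9.39 non-LRO reads, or 0.856% of the gene in the LRO library, against 11.9% in the non-LRO library. For Ets1 the ratio was 1.78 (1.55 to 2.04) on NM_001038642, with 665 LRO and 302 non-LRO reads, and 1.19 (1.03 to 1.38) on NM_011808, with 461 LRO and 312 non-LRO reads.

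**Figure D4:**
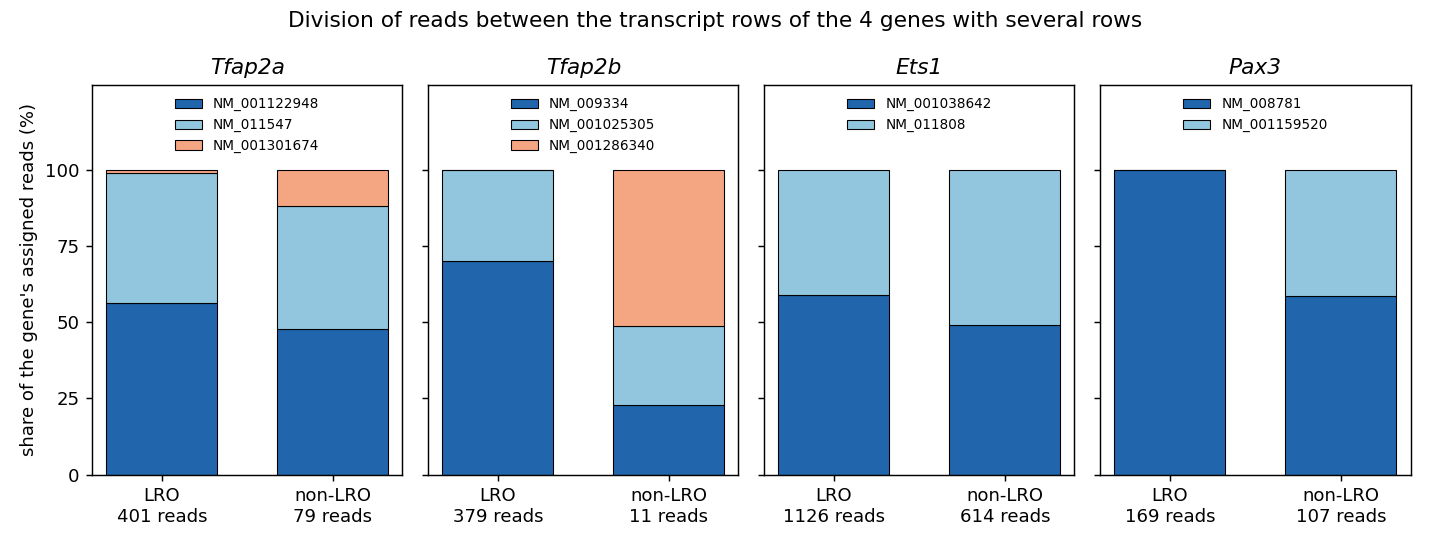
Division of assigned reads between transcript rows of Tfap2a, Tfap2b, Ets1 and Pax3, as a percentage of the gene's reads in the LRO library (left bar) and the non-LRO library (right bar). The read total stands under each bar. Pax3 NM_008781 took 99.9% of the LRO reads and 58.8% of the non-LRO reads, and the Tfap2b non-LRO bar rests on 11 reads.

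Reads that cross a splice junction come from spliced RNA. For Sox10, the factor with the widest ratio, the exon ends that such reads join are shown (GENCODE M21 on GRCm38, minus strand). Capitals mark the downstream exon.
Exon 1 (chr15:79164282-79164490) to exon 2: gagaggtcggaggagGTGGGCGTTGGGCTC
Exon 2 (chr15:79163289-79163794) to exon 3: aggcaagctctggagGTTGCTGAACGAAAG
Exon 3 (chr15:79159135-79159403) to exon 4 (chr15:79154913-79156641): cagagcacccctcagGCCAGAGCCATGGCC

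In the LRO library 15 of the 733 Sox10 reads crossed a junction, which is 2.05% (exact binomial interval 1.15 to 3.35%). In the non-LRO library 0 of 7 did. The last of the 4 exons holds 1729 of 2713 bases, or 63.7%. With 3 junctions in 2713 bases, reads of 50 bases spread evenly over the transcript would give 5.52%. The measured share was 0.371 times that value. Among 44 genes of 4 exons with a last exon of 1500 to 2000 bases, the same quotient had a median of 0.893 (quartiles 0.60 and 1.20), and 4 of the 44 were below Sox10. Foxd3 has a single exon, so no junction read is possible, and its 167 LRO reads carry no such information.

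The remaining factors all had spliced reads in the LRO library, and for Snai1 and Tfap2a the intervals of the 2 libraries lay apart. Snai1 had 70 junction reads of 383 (18.3%, interval 14.5 to 22.5%) in the LRO library and 43 of 519 (8.29%, 6.06 to 11%) in the non-LRO library. Tfap2a had 13.1% (9.84 to 16.7%) in the LRO library and 2.80% (0.308 to 8.85%) in the non-LRO library. Twist1 had 8.56% in the LRO library, against 7.26% in the non-LRO library, and Snai2 had 6.58% of LRO and 7.19% of non-LRO reads, both pairs within their intervals. Tfap2b had 8.28% of 379 LRO reads, Pax7 4 of 37 LRO reads, Ets1 3.99% in the LRO library, against 7.01% in the non-LRO library, and Pax3 8.77% in the LRO library, against 17.2% in the non-LRO library.

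The factors lie on chromosomes 15 (Sox10), 4 (Foxd3 and Pax7), 13 (Tfap2a), 1 (Tfap2b and Pax3), 9 (Ets1), 2 (Snai1), 16 (Snai2) and 12 (Twist1). Of 20 flanking symbols, 1 was higher (Ferd3l), 1 was lower (Fli1) and 18 were neither, beside 3.97% higher and 12.3% lower of all symbols, so nothing about the factors is read from these counts. Abcc1, 231 kb from Snai2, had a ratio of 0.714 (0.636 to 0.801). Its log2 ratio of -0.49 lay near the median of -0.42 over all symbols. Tfap2d and Pkhd1 beside Tfap2b, with 2 and 5 LRO reads and 0 non-LRO reads, were too little read for a comparison. Polr2f, an RNA polymerase subunit 3.14 kb from Sox10 in the positions of the table, had 1270 LRO and 870 non-LRO reads, a ratio of 1.18 (1.08 to 1.28), and Pick1 on the other side had 148 reads in each library. Ferd3l, a Twist-related factor 28.4 kb from Twist1, had 36 LRO reads and 0 non-LRO reads, a ratio with a lower 95% bound of 7.47 and a value of 9.67 against a floor of 3 non-LRO reads. Fli1, an ETS factor of endothelium 155 kb from Ets1, had 145 LRO reads and 634 non-LRO reads, a ratio of 0.184 (0.153 to 0.221). Gm26688 overlaps Tfap2a and had 4 reads in each library; the amplification kept no strand, so reads of the overlap cannot be assigned to either strand.

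Relatives of the 10 factors varied within families. Of 18 family members 3 were higher and 5 lower, beside 3.97% higher and 12.3% lower of all symbols. Their median log2 ratio was 0.15, against -0.42 over all symbols. Sox9, the SoxE relative of Sox10 and a factor of crest and cartilage, had 2848 LRO and 121 non-LRO reads, a ratio of 19.0 (15.8 to 23.0). Sox8, the remaining SoxE gene, had 27 LRO and 14 non-LRO reads, with an interval that did not reach a call. Foxd4 was also higher, with 72 LRO and 16 non-LRO reads. Twist2 had 1 LRO read and 84 non-LRO reads, so the Twist genes lay on opposite sides of 1. Erg, an endothelial ETS factor, had 21 LRO and 107 non-LRO reads and was lower, as were Fli1, Pax1 (1 LRO and 17 non-LRO reads) and Snai3 (0 LRO and 8 non-LRO reads). The other AP-2 genes were barely read, with 29 LRO and 24 non-LRO reads for Tfap2c, 2 LRO and 0 non-LRO reads for Tfap2d, and 0 LRO and 3 non-LRO reads for Tfap2e.

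The wider crest network was counted in lists, here and in the paragraphs below. Over all symbols 3.97% were higher and 12.3% lower, with a median log2 ratio of -0.42. Among 18 genes of the plate border and its signals 3 were higher, 3 lower and 12 neither, with a median log2 ratio of -0.20. Prdm1, a zinc-finger repressor used at the border in fish, had 3134 LRO and 204 non-LRO reads (ratio 12.4), and the Iroquois factors Irx1 (1088 LRO and 147 non-LRO reads) and Irx3 (417 LRO and 68 non-LRO reads) were higher with it. The lower genes were homeobox factors that answer to BMP signals. Msx1 had 230 LRO and 689 non-LRO reads, Msx2 had 510 LRO and 991 non-LRO reads, and Dlx3 had 35 LRO and 144 non-LRO reads. Zic1, a zinc-finger border factor, had 2 LRO and 4 non-LRO reads.

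The 20 other crest transcription factors had a median log2 ratio of 0.46, with 6 higher, 2 lower and 12 neither. Besides Sox9, Dlx2 (33 LRO and 4 non-LRO reads), Sox5 (370 LRO and 78 non-LRO reads), Lmo4 (1797 LRO and 401 non-LRO reads), Prrx2 (666 LRO and 194 non-LRO reads) and Mycn (2735 LRO and 981 non-LRO reads) were higher. Cited1 (643 LRO and 1274 non-LRO reads) and Alx4 (33 LRO and 96 non-LRO reads) were lower. Dlx1, which lies beside Dlx2 in the genome, had 0 LRO reads and 7 non-LRO reads.

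Receptors, adhesion and matrix genes of migrating crest numbered 19, of which 3 were higher, 3 lower and 13 neither, with a median log2 ratio of -0.27. Erbb3, the neuregulin receptor of crest glia, had 148 LRO and 30 non-LRO reads, a ratio of 3.98 (2.67 to 6.10). Cdh6, a cadherin of premigratory crest, had 810 LRO and 151 non-LRO reads, and Ret, the receptor of enteric crest, had 396 LRO and 101 non-LRO reads. Ednrb, the endothelin receptor of crest, was lower with 70 LRO and 201 non-LRO reads, as were Itga4 (71 LRO and 305 non-LRO reads) and Nrp1 (645 LRO and 1393 non-LRO reads). Ngfr, often used to sort crest cells, had 759 LRO and 739 non-LRO reads.

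Genes of crest derivatives were little read in either library. Of 20 listed, 15 had a row, and they summed to 5.58 RPKM in the LRO library, against 9.22 RPKM in the non-LRO library. Fabp7 (43 LRO and 110 non-LRO reads), S100b (0 LRO and 11 non-LRO reads) and Phox2a (0 LRO and 15 non-LRO reads) were lower. Th, the enzyme that starts catecholamine synthesis, had 0 LRO and 7 non-LRO reads, and Tyrp1, Dct, Mlana, Neurog1 and Dbh had no row.

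**Figure D5:**
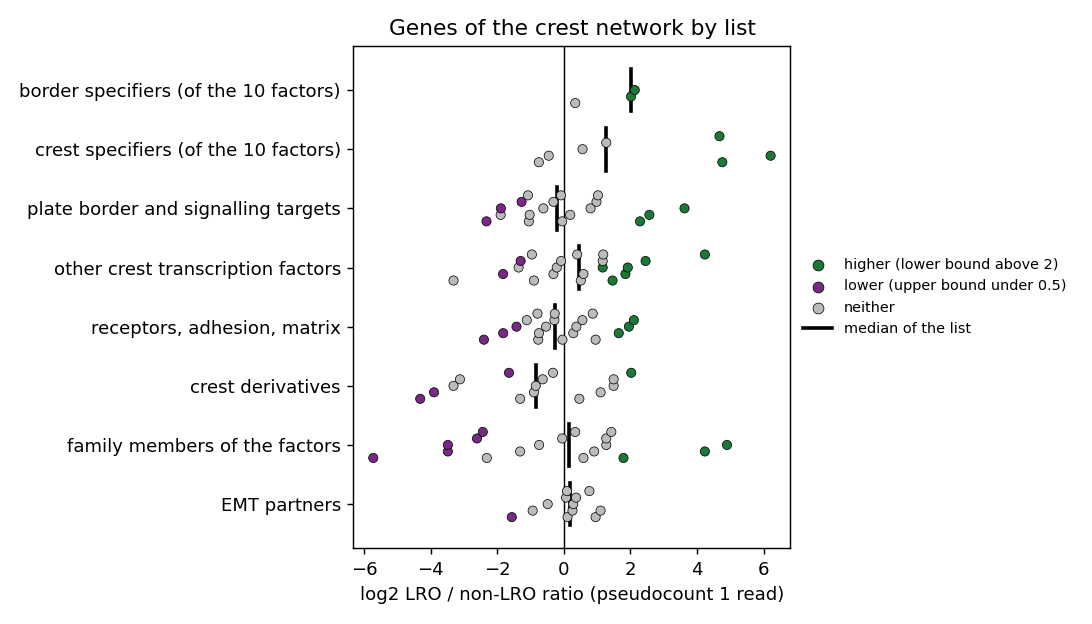
Log2 LRO to non-LRO ratio, with 1 read added to each library, of every measured gene in 8 lists of the crest network, coloured by call. Black ticks are list medians. The 10 factors fill the upper pair of rows, with medians of 2.02 and 1.27, while the median of the plate border list was -0.20 and that of the crest derivatives -0.84.

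Markers of other cells that use these factors were counted beside them, and their part in the ratios of the 10 factors was not tested. The counts here and in the mesodermal lists stand beside 3.97% higher and 12.3% lower of all symbols. Of 12 neuroectoderm markers 3 were higher and 1 lower, and they summed to 8.79 RPKM in the LRO library, against 7.12 RPKM in the non-LRO library. Wnt1, the signal of the dorsal midbrain where crest forms, had 42 LRO and 2 non-LRO reads, Rax had 24 LRO and 0 non-LRO reads, and Hesx1 had 0 LRO and 3 non-LRO reads. Pax6, a factor of the forebrain and eye, was the lower gene with 43 LRO and 106 non-LRO reads (ratio 0.327). Lhx2 was the remaining higher marker, with 103 LRO and 21 non-LRO reads. The general neural factors Sox1 (121 LRO and 107 non-LRO reads), Sox2 (90 LRO and 90 non-LRO reads) and Sox3 (19 LRO and 3 non-LRO reads) were neither. The same held for Otx2, an anterior marker in the paper, with 84 LRO and 89 non-LRO reads. Of 11 otic and placode markers 3 were higher and 0 lower (22.7 RPKM in the LRO library, against 12.6 RPKM in the non-LRO library), with Oc90 and Foxi2 at 0 in the LRO library. In surface ectoderm, which uses Tfap2a, 0 of 10 markers were higher and 3 lower (78.6 RPKM in the LRO library, against 101.7 RPKM in the non-LRO library).

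Mesodermal lists went both ways. Paraxial and head mesoderm, which uses Twist1, had 3 of 10 markers higher and 2 lower and summed to 84.7 RPKM in the LRO library, against 37.5 RPKM in the non-LRO library, with Meox2 at 0 in the LRO library. Tbx1, the head mesoderm T-box factor, had 411 LRO and 20 non-LRO reads. Presomitic mesoderm, which uses the Snail factors, had 0 of 9 higher and 3 lower and summed to 35.9 RPKM in the LRO library, against 91.1 RPKM in the non-LRO library. Cardiac and pharyngeal mesoderm had 5 of 10 higher and 2 lower, with a median log2 ratio of 1.20. The list summed to 107.2 RPKM in the LRO library and 119.6 RPKM in the non-LRO library. Hand1 alone gave 4.77 RPKM of the LRO sum and 68.9 RPKM of the non-LRO sum. It was lower, with 274 LRO and 3194 non-LRO reads, as was Gata4 (240 LRO and 1041 non-LRO reads). Nkx2-5 (183 LRO and 6 non-LRO reads) and Mef2c (2146 LRO and 231 non-LRO reads) were among the higher genes. Endothelium, which uses Ets1, had Pecam1 at 0 LRO reads and 185 non-LRO reads and Cdh5 at 5 LRO and 478 non-LRO reads, while Ets1 itself lay above 1 in ratio.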

How the data were processed

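Per the labels, total RNA was amplified as cDNA without strand (Ovation RNA-Seq System v2) and libraries were made with Nextera. The authors aligned 50-base single-end reads with TopHat and quantified them with Partek 6.6. The deposited estimated counts are reads per RefSeq transcript, divided among transcripts of a gene, and were rounded after summing per symbol. The deposited RPKM values are scaled by the authors to transcript length and a library total, which was recovered as 30277870 reads (LRO) and 24407299 reads (non-LRO). The deposited junction RPKM and transcript lengths, other units, gave junction reads. The 2 incompatible RPKM columns and the authors' own comparison columns, which hold test statistics and p-values for expression and splicing, were not used.

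The labels name mm10, but transcript ends on chromosome 1 reach 197002910, past the end of that chromosome in GRCm38, so the table's positions come from an older build and were used only for distances. Sequences come from RefSeq windows and GENCODE M21, both on GRCm38; Sox10, Ets1, Snai2 and Pax3 were matched to no promoter window.

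Ratios of scaled reads carry exact conditional binomial (Clopper-Pearson) 95% intervals, levels exact Poisson intervals, and amplified reads are not independent molecules, so both can be too narrow. A library with 0 reads was given a floor of 3 reads. Rn45s, a ribosomal RNA row, took 23.9% of LRO and 17.6% of non-LRO assigned reads. The 10 factors, the lists and the rule for naming genes (all factors, called list members, their flanking genes and nearest ratios) were chosen with earlier results of these data known, and unread or uncalled list members were named after their values were seen. Some members of the lists are not reported here by name. Python 3.11.15, scipy 1.17.1 and edgeR 4.0.16 (TMM factors only) were used.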

Additional observations from a re-analysis of the deposited data

How the results depend on the processing

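No paired analysis was possible because there was a lone library on each side, which also meant that no replicate could be left out. Of the 10 factors, 5 were higher as reported, and 3 were higher when the fold bound was 4 or when all reads were divided by 10, a stand-in for amplified copies. Under both, Sox10, Foxd3 and Tfap2b kept the call, as they did under all 10 alternatives. The count was 6, with Twist1 added, under TMM factors, the median ratio, assigned reads without Rn45s and Lars2, and a fold bound of 1.5, and it was 4, without Pax7, under a 99% interval and where symbols had to reach 50 reads in total. No factor was lower under any of the 10 alternatives and no ratio of a factor crossed 1. With TMM factors well-read symbols had a median log2 ratio of 0.04 in place of -0.31, and 1134 of all symbols were higher and 1388 lower, in place of 699 and 2167. Under TMM factors the other crest transcription factors had 8 higher and 0 lower, in place of 6 and 2, the plate border list 5 higher and 2 lower, in place of 3 and 3, the partners in epithelial release 2 higher and 0 lower, in place of 0 and 1, paraxial and head mesoderm 6 higher, in place of 3, otic and placode markers 5 higher, in place of 3, and surface ectoderm 1 higher and 1 lower, in place of 0 and 3. Of 320 recomputed list counts, 241 stayed within 1.5 times and 79 did not. Pax7 (43 reads in all) and the non-LRO levels of Sox10, Foxd3 and Tfap2b are limited by depth.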

Other observations

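Of 12 partners of the Snail and Twist factors in the release of epithelial cells, 0 were higher, 1 was lower and 11 were neither, beside 3.97% higher and 12.3% lower of all symbols, and the median log2 ratio was 0.19. Several of those called neither had intervals away from 1. Cdh1, which encodes E-cadherin and is a target of Snai1 and Snai2, had 758 LRO and 583 non-LRO reads, a ratio of 1.05. Cdh2, which encodes N-cadherin, had 3161 LRO and 2093 non-LRO reads, and Cdh11 had 3449 LRO and 1434 non-LRO reads, a ratio of 1.94 (1.82 to 2.06). Cldn6, a claudin of epithelial tight junctions, had 1811 LRO and 679 non-LRO reads, a ratio of 2.15 (1.97 to 2.35). Zeb1 had 1202 LRO and 751 non-LRO reads, and Zeb2 had 1137 LRO and 1282 non-LRO reads. Epcam, an epithelial adhesion molecule, was the lower gene, with 70 LRO and 168 non-LRO reads, and Vim, the intermediate filament of mesenchyme, had 1379 LRO and 2125 non-LRO reads, a ratio of 0.523 (0.488 to 0.560).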
